A study of Homo sapiens with 8 samples.

Results

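The genes described here are 31 genes of the integrated stress response, namely ATF4 and partner transcription factors, ATF4 target genes, enzymes of serine and one-carbon metabolism, and cytosolic aminoacyl-tRNA synthetases. They were taken by gene symbol from the count table, and all 31 were found among its 60564 genes. RNA was sequenced from AB8/13, a conditionally immortalised human podocyte line, grown at 33 °C and then held at 37 °C for 5 days so that it differentiates. The ATOH8 knockdown group held 4 libraries of cells transfected with shRNA directed at ATOH8, a basic helix-loop-helix transcription factor, and the control group held 4 libraries of cells transfected with a non-targeting shRNA. All cells are of 1 line, and neither the number nor the sequence of the shRNAs is stated.

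Total counts ran from 23229160 to 25277868 in knockdown and from 21108695 to 27109043 in control libraries. ATOH8 was at 2.43 ± 0.329 CPM (counts scaled to library size) in knockdown and 5.83 ± 0.66 CPM in control libraries (SD, n = 4 each), and the groups did not overlap (log2 change -1.26, SE 0.127, edgeR adjusted p = 1.78e-09). Its two-sided exact permutation test over 70 assignments gave p = 0.0286, the smallest this design allows. Of the defining podocyte genes, PTPRO was at or below 0.3 CPM in every library, while WT1 was at 4.95 ± 0.551 CPM in knockdown and 5.61 ± 0.526 CPM in control libraries. The 8 podocyte markers summed to 207 to 242 CPM in knockdown and 252 to 263 CPM in control libraries, most of it from CD2AP (189 ± 13.3 CPM in knockdown and 227 ± 5.76 CPM in control libraries). Of the 4 that were tested 1 rose (SYNPO, log2 change 0.53, SE 0.0619), 2 fell and 1 did not pass. Summed levels of 6 mesangial and pericyte markers were 117 to 135 CPM in knockdown and 40.5 to 42.9 CPM in control libraries. Most of this came from CSPG4 (83.4 ± 6.95 CPM in knockdown and 22.8 ± 0.554 CPM in control libraries). Those of 6 endothelial markers were 41.7 to 44.6 CPM in knockdown and 25.1 to 28.9 CPM in control libraries. Most of that came from EHD3 (34.8 ± 1.71 CPM in knockdown and 24.7 ± 1.57 CPM in control libraries). Of 5 tested mesangial and pericyte markers 4 rose, and RGS5 fell (log2 change -0.39, SE 0.0962). Of 4 tested endothelial markers 3 rose, among them TEK at 0.76 ± 0.172 CPM in knockdown and 0.269 ± 0.139 CPM in control libraries. The 5 leukocyte markers summed to 103 to 113 CPM in knockdown and 76.4 to 86.4 CPM in control libraries, mostly from CD68, and 2 of the 3 tested rose. The 6 tubule and parietal cell markers summed to 1100 to 1140 CPM in knockdown and 1150 to 1190 CPM in control libraries, and 1 of the 4 tested fell. Beside these marker counts, 25.2% of all genes tested rose and 25.9% fell. PECAM1 and ITGA8, defining genes of endothelial and mesangial cells, were at 0 counts or 1 count in every library. The part of these differences in the results below was not tested, and in bulk RNA fewer cells that express a gene cannot be told apart from less RNA per cell.

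In the integrated stress response, kinases that sense amino acid shortage, misfolded proteins, double-stranded RNA or lack of heme phosphorylate the initiation factor eIF2. General protein synthesis then slows, while the messenger RNA of ATF4 is translated more efficiently through its upstream open reading frames. ATF4 pairs with C/EBP proteins and switches on genes of amino acid uptake, asparagine and serine synthesis, tRNA charging and feedback control. Because ATF4 is set largely by translation, its messenger RNA level and its activity can differ, and neither translation nor protein was measured here. Podocytes are long-lived secretory cells, and this pathway has been studied in them as part of the response to protein misfolding.

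ATF4 and C/EBP heterodimers bind a composite element, and its letters TGATGNAA (N is any base) were searched on both strands in RefSeq promoters on GRCh38.p14, each running from 250 bases before to 50 bases after a start site. Promoters were found for 25 of the 31 genes, the exceptions being NUPR1, PSPH, SHMT2, ALDH1L2, LARS1 and YARS1. The motif was in at least 1 promoter of 10 of these 25 genes, or 40%, against 2.76% of 11710 tested genes with a promoter. Counted by promoter, it was in 25.6% of 39 member promoters and in 2.04% of 16939 promoters of tested genes. Among 18 further ATF4 targets with a promoter it was in 7, or 38.9%, and among 9 interferon-stimulated genes in 3, or 33.3%. The promoters of ASNS (chr7:97872409-97872658, minus strand) and CHAC1 (chr15:40953221-40953470, plus strand) are shown first, because both are standard ATF4 reporter genes and both rose. Each is given 5′ to 3′ as the 250 bases before the start, with the motif in capitals. The motif begins 68 bases before the start in ASNS and 209 bases before it, on the other strand, in CHAC1. They were the 2 of the 7 ATF4 target members that had the motif (28.6%), while 6 of the 7 rose.
ASNS: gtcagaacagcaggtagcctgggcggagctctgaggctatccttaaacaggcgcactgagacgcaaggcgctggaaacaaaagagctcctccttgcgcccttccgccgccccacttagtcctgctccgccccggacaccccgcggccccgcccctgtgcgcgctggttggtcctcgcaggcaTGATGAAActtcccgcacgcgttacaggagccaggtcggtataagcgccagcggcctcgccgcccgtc
CHAC1: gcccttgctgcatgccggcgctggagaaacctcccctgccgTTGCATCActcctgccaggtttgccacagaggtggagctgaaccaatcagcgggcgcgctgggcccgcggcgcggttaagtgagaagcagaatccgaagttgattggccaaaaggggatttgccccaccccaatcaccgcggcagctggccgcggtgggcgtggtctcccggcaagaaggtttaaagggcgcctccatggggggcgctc

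The other 8 genes with the motif are CEBPG and 7 of the 10 tRNA synthetase genes that have a promoter in the table. Their 30 bases around the motif are shown in the direction of the gene, with the motif in capitals, to set synthetase genes that rose (AARS1, IARS1, MARS1), fell (GARS1, NARS1, TARS1) or did not pass the test (CARS1) side by side.
AARS1: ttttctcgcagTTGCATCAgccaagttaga
IARS1: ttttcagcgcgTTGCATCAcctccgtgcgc
MARS1: gccggttccggTTGCATCAgcgagggattc
CARS1: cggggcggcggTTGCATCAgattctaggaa
GARS1: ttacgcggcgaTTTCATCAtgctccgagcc
NARS1: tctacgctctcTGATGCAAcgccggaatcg
TARS1: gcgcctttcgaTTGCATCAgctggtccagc
CEBPG: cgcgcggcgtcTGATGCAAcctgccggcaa
On GRCh38.p14 these lie at chr16:70289675-70289704 (AARS1, minus strand), chr9:92293692-92293721 (IARS1, minus), chr12:57488053-57488082 (MARS1, plus) and chr11:3057407-3057436 (CARS1, minus). The others lie at chr7:30594834-30594863 (GARS1, plus), chr18:57621804-57621833 (NARS1, minus), chr5:33440956-33440985 (TARS1, plus) and chr19:33374060-33374089 (CEBPG, plus). By call, the motif was in 5 of the 14 genes with a promoter that rose, 3 of the 6 that fell and 2 of the 5 that did not pass. A match describes letters only, and binding was not measured.

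All 31 genes had enough counts to test. In ATOH8 knockdown 17 of them rose, 8 fell and 6 did not pass the test, an adjusted p under 0.05 in edgeR's quasi-likelihood test over all genes, where 51.1% of 16884 genes were called. Across all genes 25.2% were called higher and 25.9% lower. The 54.8% of members called higher were thus above the background share, and the 25.8% called lower were near it. In control libraries the members ran from 5.35 CPM (CHAC1) to 334 CPM (IARS1). These shares were not compared with those of genes at like levels. The members' median log2 change was 0.14 and that of all genes -0.0007, while the median size of the change was 0.19 in both. Of the 31 genes, 3 (CHAC1, NUPR1 and TRIB3) were called with a change of at least 0.5 on the log2 scale, as were 13.2% of all genes. The knockdown libraries stood wholly above the control libraries for 14 members and wholly below for 8. Over all genes 45.6% had groups that did not overlap, 22.4% higher and 23.2% lower.

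**Figure D1:**
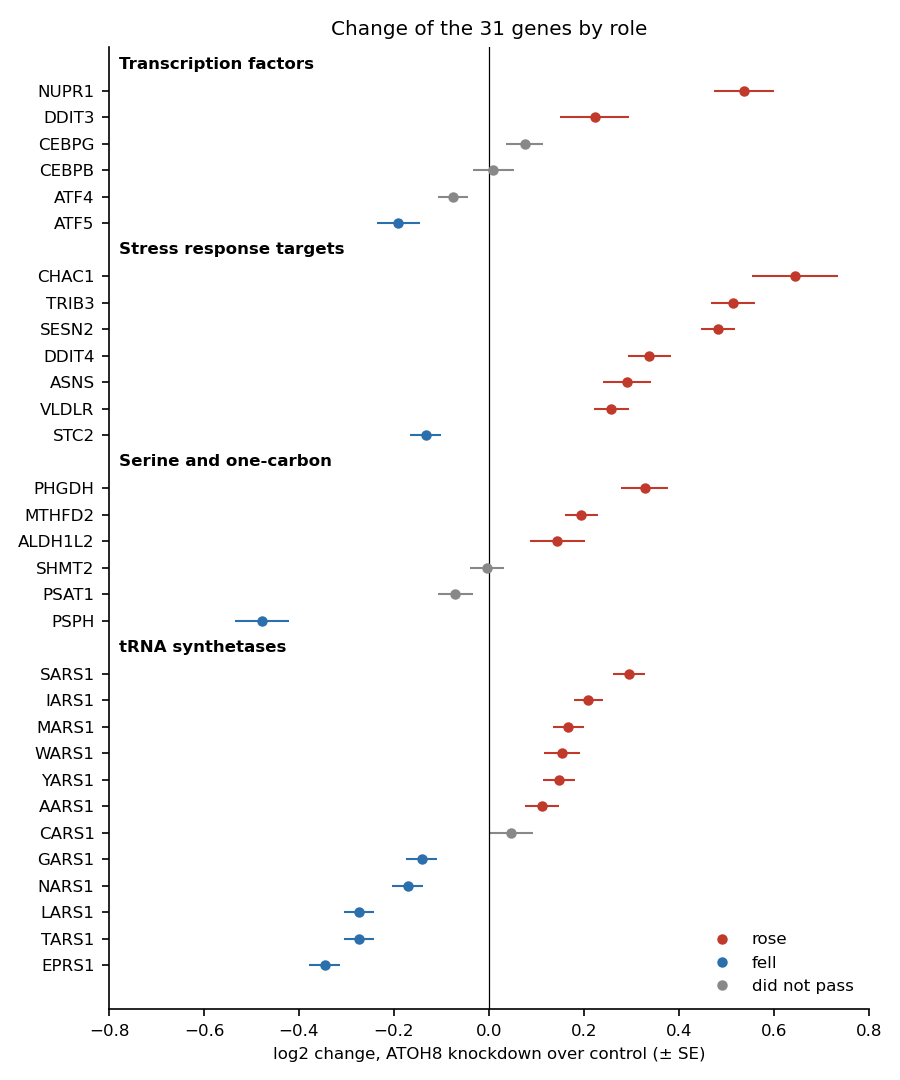
Log2 change of each of the 31 genes in ATOH8 knockdown over control (horizontal axis, points with SE bars), grouped by role and coloured by call. Of the stress response targets 6 of 7 lie to the right of 0, while the tRNA synthetases split, with 6 that rose and 5 that fell.

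Of the 6 transcription factors NUPR1 had the largest change. DDIT3 was also called higher and ATF5 lower, while ATF4, CEBPB and CEBPG did not pass. ATF4 (ENSG00000128272.14, chromosome 22), the central factor, had 172, 162, 161 and 169 CPM in knockdown libraries, against 178, 171, 175 and 176 CPM in control libraries. The groups overlapped, with the highest knockdown library just above the lowest control library, and the log2 change of -0.075 (SE 0.0321) missed the threshold at an adjusted p of 0.0519. It passed, in the same direction, under 4 of 13 alternatives, with adjusted p = 0.0432 by DESeq2. Rows of 4 ATF4 pseudogenes held 182 counts over all libraries, beside 33614 for ATF4. ATF5, a close relative that is also regulated by translation, fell to 37.3 ± 1.48 CPM in knockdown, against 42.6 ± 2.05 CPM in control libraries (log2 change -0.19, SE 0.0458, adjusted p = 0.000912). Its exons share 626 bases with NUP62 on the opposite strand, and without a stated strand setting reads of such pairs cannot be told apart.

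DDIT3, which encodes the pro-apoptotic factor CHOP, had 15.8, 14.0, 13.9 and 17.0 CPM in knockdown libraries, against 14.1, 13.0, 12.9 and 11.9 CPM in control libraries. The groups overlapped, and DDIT3 was called higher (log2 change 0.22, SE 0.0728, adjusted p = 0.0113). It kept its direction but missed the threshold without knockdown replicate 4 (log2 0.163, adjusted p = 0.0723), without control replicate 4 (log2 0.182, adjusted p = 0.0569) and by DESeq2 (log2 0.222, adjusted p = 0.0553). The DDIT3 row holds 2773 counts over the 8 libraries and its exons share 355 bases with MARS1 on the opposite strand, whose row holds 26933 counts and also rose. Of the partners of ATF4, CEBPB had a log2 change of 0.0097 (SE 0.0431, adjusted p = 0.871) and CEBPG, whose promoter carries the motif, one of 0.075 (SE 0.039, adjusted p = 0.11). CEBPB was at 74.9 ± 3.54 CPM in knockdown and 74.4 ± 4.55 CPM in control libraries. NUPR1, a small stress-induced chromatin-associated protein, had 26.3, 21.3, 22.3 and 22.1 CPM in knockdown libraries, against 15.9, 15.8, 15.1 and 16.5 CPM in control libraries. Every knockdown library was above every control library, and the rise of 1.45-fold (log2 0.54, SE 0.0627, adjusted p = 2.96e-08) was the second largest of the 31 genes.

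Most of the 7 listed targets rose, on a list drawn up with earlier results of these data known. Of the 7, 6 rose (85.7%) and 1 fell (14.3%), beside 25.2% and 25.9% of all genes. Their median log2 change was 0.34, and in each of the 7 the groups did not overlap, as in 45.6% of all genes. The 21 further ATF4 targets tested had a median log2 change of 0.04, with 47.6% called higher and 19% lower. CHAC1, an enzyme that breaks down glutathione, had 8.34, 8.52, 7.88 and 8.76 CPM in knockdown libraries, against 5.17, 5.33, 5.04 and 5.86 CPM in control libraries. It had the largest rise of the 31 genes, 1.56-fold (log2 0.64, SE 0.0899, adjusted p = 6.43e-07), on 183 to 220 counts in knockdown and 106 to 151 counts in control libraries. TRIB3, a pseudokinase that feeds back on ATF4, had 63.1, 57.3, 67.8 and 68.3 CPM in knockdown libraries, against 44.9, 44.6, 44.6 and 45.4 CPM in control libraries. Its control libraries lay within 1 CPM of each other, the knockdown libraries spread more widely, and the rise was 1.43-fold (log2 0.51, SE 0.0465, adjusted p = 3.65e-10).

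SESN2, a leucine-sensing sestrin that restrains mTORC1 and is also a p53 target, had 90.2, 84.3, 90.8 and 91.2 CPM in knockdown libraries, against 65.2, 63.1, 63.1 and 63.6 CPM in control libraries. Knockdown replicate 2 stood below the other knockdown libraries and still far above the controls, and the rise had the smallest adjusted p of the 31 genes (log2 0.48, SE 0.0362, adjusted p = 4.26e-12). DDIT4, which encodes the mTORC1 inhibitor REDD1 and also answers to hypoxia and glucocorticoids, rose to 44.0 ± 1.87 CPM in knockdown, against 34.7 ± 1.08 CPM in control libraries (log2 0.34, SE 0.0447, adjusted p = 2.61e-07). Both genes curb growth signalling. ASNS, the asparagine synthetase, had 30.1, 30.8, 33.5 and 31 CPM in knockdown libraries, against 27.5, 24.9, 25.3 and 24.7 CPM in control libraries (log2 0.29, SE 0.0507, adjusted p = 1.88e-05). The highest control library of ASNS stayed below the lowest knockdown library. On the same strand, ASNS shares 1985 exonic bases with an annotated overlapping gene (ENSG00000284707) whose row held 204 counts beside 5612. VLDLR, a lipoprotein receptor induced through ATF4, rose to 66.5 ± 0.689 CPM in knockdown, against 55.7 ± 1.41 CPM in control libraries (log2 0.26, SE 0.0366, adjusted p = 8.69e-07). The exception was STC2, a secreted glycoprotein of calcium and phosphate handling, which fell to 126 ± 2.65 CPM in knockdown, against 138 ± 3.64 CPM in control libraries (log2 -0.13, SE 0.0326, adjusted p = 0.00111).

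**Figure D2:**
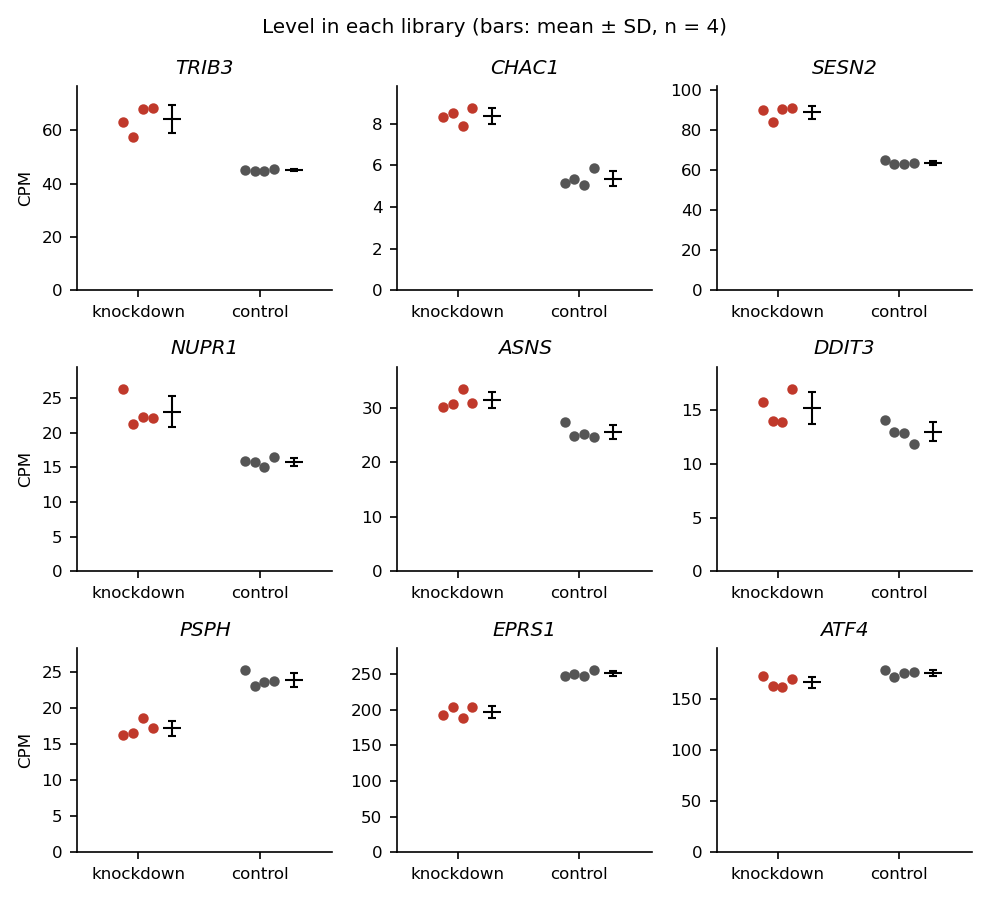
Level in CPM (vertical axis from 0) of 9 of the genes in each knockdown library (left, red) and control library (right, grey), with mean ± SD bars (n = 4). TRIB3, CHAC1, SESN2, NUPR1 and ASNS are higher in every knockdown library, PSPH and EPRS1 are lower in every one, and the groups overlap for DDIT3 and ATF4.

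The 3 enzymes of serine synthesis, which act one after the other on the glycolytic intermediate 3-phosphoglycerate, went 3 ways. PHGDH, the first and committed step, had 45.3, 42.4, 47.0 and 40.0 CPM in knockdown libraries, against 35.1, 34.4, 33.5 and 35.9 CPM in control libraries. Each knockdown library was above each control library, and PHGDH rose 1.26-fold (log2 0.33, SE 0.0488, adjusted p = 1.83e-06). PSAT1, the aminotransferase of the second step, was at 75.9 ± 2.92 CPM in knockdown and 79.8 ± 2.39 CPM in control libraries, and its log2 change of -0.071 (SE 0.037, adjusted p = 0.111) did not pass. PSPH, the phosphatase that releases serine, had 16.3, 16.5, 18.6 and 17.3 CPM in knockdown libraries, against 25.3, 23.1, 23.6 and 23.7 CPM in control libraries. It had the largest fall of the 31 genes, to 0.718 of the control level (log2 -0.48, SE 0.0562, adjusted p = 3.28e-08). The row of its pseudogene PSPHP1 held 248 counts over the 8 libraries beside 4067 for PSPH.

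Of the mitochondrial enzymes that pass serine's carbon to folate, MTHFD2, a dehydrogenase and cyclohydrolase that is low in most adult tissues, rose to 122 ± 2.77 CPM in knockdown, against 106 ± 3.73 CPM in control libraries (log2 0.19, SE 0.0342, adjusted p = 2.17e-05). SHMT2, which splits serine into glycine and a one-carbon unit, had 97.1, 96.2, 98.4 and 95.4 CPM in knockdown libraries, against 94.9, 92.5, 98.8 and 102 CPM in control libraries. The SHMT2 groups overlapped throughout (log2 -0.0041, SE 0.0356, adjusted p = 0.935). ALDH1L2, which oxidises formyl-folate in mitochondria, was at 18.1 ± 0.588 CPM in knockdown and 16.4 ± 0.632 CPM in control libraries. Its log2 change of 0.14 (SE 0.0574, adjusted p = 0.0363) lay between 0.125 and 0.165 under all 13 alternatives, but missed the threshold under 7 of them, including DESeq2 (log2 0.142, adjusted p = 0.145) and a fit without control replicate 1 (log2 0.125, adjusted p = 0.102). ALDH1L2 shares 145 exonic bases with NOPCHAP1 on the opposite strand. In all, 3 of these 6 genes rose (50%), 1 fell (16.7%) and 2 stayed uncalled (median log2 change 0.07). Of all genes 25.2% rose and 25.9% fell.

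The 12 synthetases, which load amino acids onto their tRNAs, divided into 6 that rose, 5 that fell and CARS1, which did not pass (log2 0.046, SE 0.0456, adjusted p = 0.417). The 50% that rose and 41.7% that fell stood beside 25.2% and 25.9% of all genes. SARS1, for serine, had 144, 134, 145 and 142 CPM in knockdown libraries, against 112, 118, 115 and 117 CPM in control libraries. No knockdown library fell into the control range, and this was the largest rise among the 12 (log2 0.3, SE 0.034, adjusted p = 2.22e-08). IARS1, for isoleucine, was the member with the most counts per library and had 370, 390, 389 and 397 CPM in knockdown libraries, against 339, 332, 324 and 340 CPM in control libraries (log2 0.21, SE 0.0309, adjusted p = 1.6e-06). MARS1, for methionine, rose by 0.17 (SE 0.0335) and YARS1, for tyrosine, by 0.15 (SE 0.0339) on the log2 scale, both without overlap of the groups. YARS1 shares 396 exonic bases with S100PBP on the opposite strand, whose row held 7302 counts beside 22675.

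AARS1 and WARS1 were called higher, although their groups overlapped. AARS1, for alanine, had 159, 141, 145 and 151 CPM in knockdown libraries, against 137, 137, 143 and 134 CPM in control libraries. The second knockdown library lay within the control range, and the call (log2 0.11, SE 0.0358, adjusted p = 0.0102) was not made without knockdown replicate 1 (log2 0.0798, adjusted p = 0.0595). WARS1, for tryptophan and also an interferon-induced gene, was at 93.1 ± 4.34 CPM in knockdown and 83.7 ± 3.43 CPM in control libraries (log2 0.15, SE 0.0387, adjusted p = 0.00138), with 1 knockdown library inside the control range. Of 11 tested interferon-stimulated genes listed for context, all 11 fell, with a median log2 change of -0.84, where 25.9% of all genes fell. Their relation to the change of WARS1 was not tested.

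Among the synthetases that fell, EPRS1, which charges both glutamate and proline tRNAs, had 193, 204, 188 and 204 CPM in knockdown libraries, against 248, 250, 248 and 256 CPM in control libraries. The gap between the groups was wider than either group's range, and EPRS1 fell to 0.787 of the control level (log2 -0.35, SE 0.0323, adjusted p = 4.19e-10). TARS1, for threonine, fell to 192 ± 4.32 CPM in knockdown, against 233 ± 4.68 CPM in control libraries, and LARS1, for leucine, to 161 ± 5.19 CPM, against 195 ± 2.73 CPM, both with a log2 change of -0.27. NARS1, for asparagine, fell by 0.17 (SE 0.0321), and GARS1, for glycine, by 0.14 (SE 0.0322) on the log2 scale. For all 5 the knockdown libraries stood wholly below the controls, as for 23.2% of all genes. All 5 stayed called lower under each of the 13 alternatives. Members with the ATF4 motif stood on both sides, 3 of 5 risers with a promoter and 3 of 4 fallers.

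**Figure D3:**
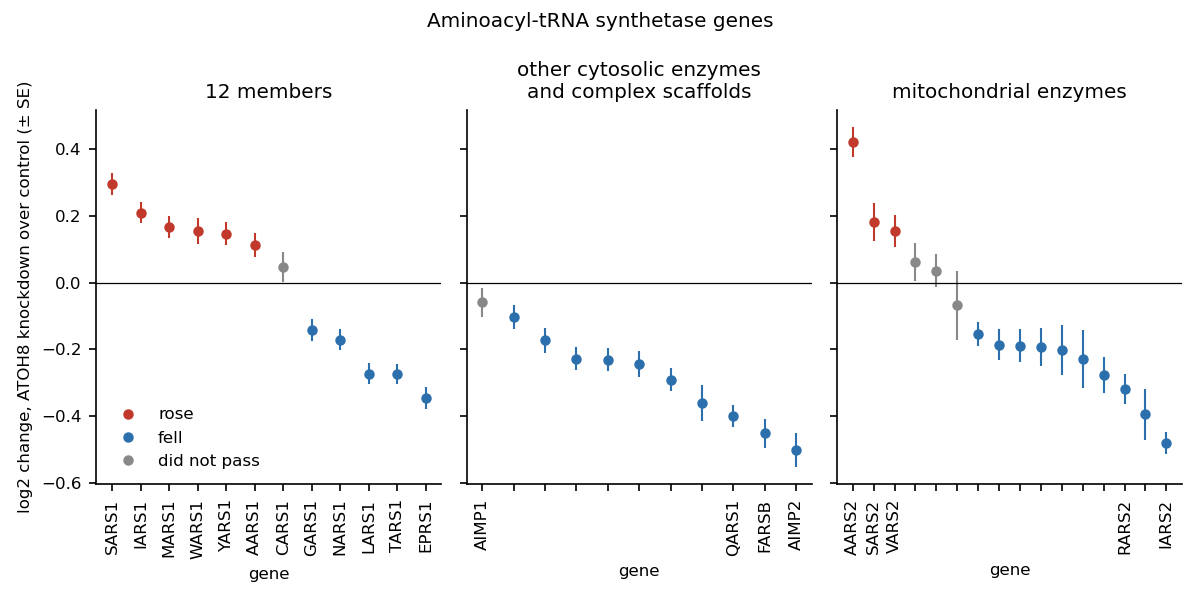
Log2 change in ATOH8 knockdown over control (vertical axis, points with SE bars) of the 12 synthetase members, of 8 other cytosolic synthetases with 3 scaffold proteins, and of mitochondrial synthetases, each panel sorted from high to low and labelled where the text names the gene; not every mitochondrial gene is plotted. The members split around 0, no gene of the middle panel rose, and most of the mitochondrial genes plotted lie below 0.

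Cytosolic synthetase genes outside the 12 did not divide in this way. Both lists were drawn up with earlier results of these data known, and the contrast between them was not tested. Of 8 further cytosolic enzymes and 3 scaffold proteins of the multi-synthetase complex, 10 fell (90.9%, beside 25.9% of all genes) and 0 rose (beside 25.2%). AIMP1 did not pass (log2 -0.06, SE 0.0438, adjusted p = 0.268), and the median log2 change of this list was -0.24. QARS1, for glutamine, fell to 113 ± 3.18 CPM in knockdown, against 149 ± 2.09 CPM in control libraries (log2 -0.4, SE 0.0324). FARSB, a subunit of the phenylalanine enzyme, fell by 0.45 (SE 0.0422) and the scaffold gene AIMP2 by 0.5 (SE 0.0508). The motif was found in 0 of the 9 promoter-bearing genes of this list. Over all 20 cytosolic synthetases 6 rose (30%), 13 fell (65%) and 1 did not pass, and each of the 6 that rose was among the 12 members. Of 17 mitochondrial synthetases, 3 rose (17.6%), 11 fell (64.7%) and 3 did not pass (median -0.19). AARS2, for alanine, rose to 44.0 ± 1.65 CPM in knockdown, against 32.9 ± 1.25 CPM in control libraries (log2 0.42, SE 0.0452), as did SARS2 (log2 0.18, SE 0.0574) and VARS2 (log2 0.15, SE 0.0491). IARS2 had the smallest adjusted p of the falls (log2 -0.48, SE 0.0324, adjusted p = 4.07e-13), and RARS2 fell by 0.32 (SE 0.0444). Isoleucine's pair thus moved apart, with IARS1 called higher and IARS2 called lower.

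Upstream of ATF4, the eIF2 kinases differed from one another. EIF2AK4 (GCN2), the sensor of uncharged tRNA, rose to 150 ± 4.55 CPM in knockdown, against 118 ± 1.18 CPM in control libraries (log2 0.34, SE 0.0324, adjusted p = 5.89e-10), and its activator GCN1 rose by 0.25 (SE 0.0363). EIF2AK2 (PKR), which binds double-stranded RNA and is itself interferon-induced, fell to 169 ± 4.76 CPM in knockdown, against 224 ± 7.23 CPM in control libraries (log2 -0.41, SE 0.0327, adjusted p = 1.59e-11). EIF2AK1 (HRI), the heme-regulated kinase, fell by 0.19 (SE 0.0314), and EIF2AK3 (PERK), the kinase of the endoplasmic reticulum, had a log2 change of -0.1 (SE 0.0476, adjusted p = 0.081). EIF2B2, a subunit of the exchange factor that eIF2 phosphorylation blocks, rose by 0.39 (SE 0.054). The 2 phosphatase subunits that reverse the response moved in opposite directions. PPP1R15B, the constitutive subunit, fell by 0.22 (SE 0.0426), and PPP1R15A (GADD34), the stress-induced one, named here after its values were seen, rose by 0.25 (SE 0.0376). Of the 17 genes of this list 5 rose, 5 fell and 7 missed the threshold, shares of 29.4% each way beside 25.2% and 25.9% of all genes.

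Of 23 further ATF4 targets 21 were tested, of which 10 rose (47.6%), 4 fell (19%) and 7 missed the threshold, and their median log2 change was 0.04. Among all genes 25.2% were called higher and 25.9% lower. GADD45A, a growth arrest gene that p53 also induces, rose to 161 ± 7.5 CPM in knockdown, against 115 ± 1.53 CPM in control libraries (log2 0.48, SE 0.0346, adjusted p = 1.51e-12). The amino acid transporter genes SLC7A5 (log2 0.29, SE 0.0426) and SLC1A4 (log2 0.27, SE 0.0416) rose, and SLC38A2, another one, fell (log2 -0.19, SE 0.0323). Both listed genes of proline synthesis fell, ALDH18A1 by 0.3 (SE 0.0329) and PYCR1 by 0.26 (SE 0.0445). FGF21 had 0 counts in all 8 libraries.

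Of 13 further folate and glycine genes, 3 rose (23.1%), 4 fell (30.8%) and 6 did not pass, shares near the 25.2% and 25.9% of all genes. The glycine cleavage gene GCSH (log2 -0.47, SE 0.0525), the mitochondrial serine carrier SFXN1 (log2 -0.31, SE 0.0363) and MTHFD2L (log2 -0.71, SE 0.103) fell. MTHFD2L is the close relative of MTHFD2, which rose. ALDH1L1, at 0.505 ± 0.088 CPM in knockdown and 0.168 ± 0.126 CPM in control libraries, was called higher at a very low level, and MTHFD1 rose by 0.1 (SE 0.0334). Of 15 genes of the ATF6 and XBP1 arm of the unfolded protein response, 6 rose (40%), 6 fell (40%) and 3 did not pass. Over all genes these shares were 25.2% and 25.9%. By smallest adjusted p, HSPA5 (log2 -0.29, SE 0.0315), HSP90B1 (log2 -0.31, SE 0.0314) and PDIA4 (log2 -0.27, SE 0.0307) led the falls. HERPUD1 (log2 0.45, SE 0.0401), SEL1L (log2 0.19, SE 0.0334) and CRELD2 (log2 0.18, SE 0.0584) led the rises.

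**Figure D4:**
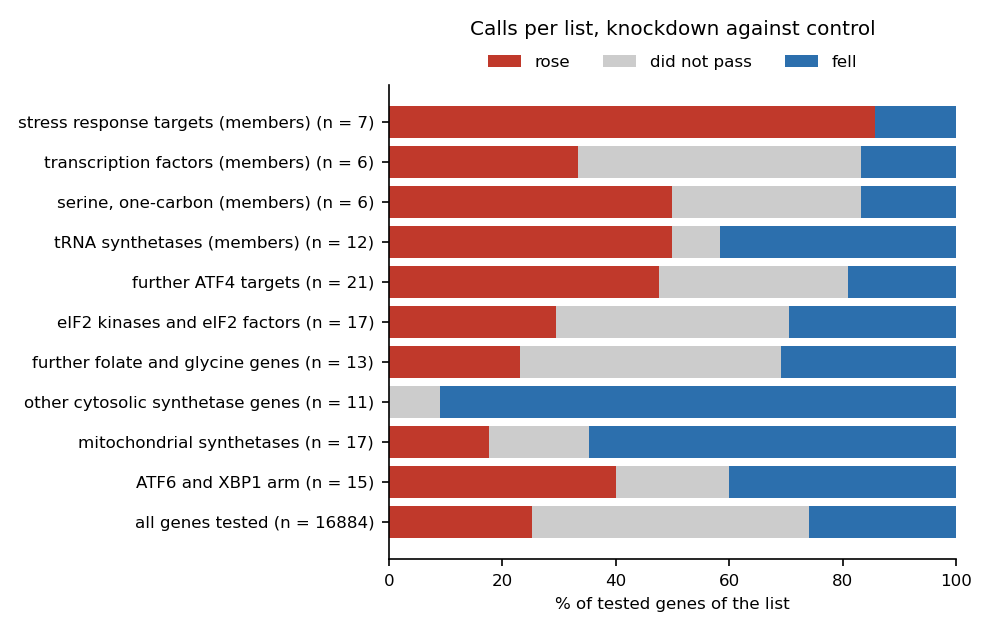
Share of tested genes (horizontal axis, %) that rose (red), did not pass (grey) or fell (blue) in ATOH8 knockdown against control, for the 4 role groups, 6 further lists and all genes tested. The stress response targets have the largest red share of the lists plotted, and the cytosolic synthetase genes outside the 12 members have no red part.

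The median log2 difference of the 7 targets from the control mean was 0.39, 0.27, 0.39 and 0.34 in knockdown replicates 1 to 4 and between -0.01 and 0.02 in the control libraries. Knockdown replicate 2 was the lowest knockdown library for 11 of the 31 genes, and knockdown replicate 4 the highest for 13. For the synthetase members the medians were 0.12, -0.04, 0.07 and 0.12 in the knockdown libraries, while single genes of this group rose or fell.

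**Figure D5:**
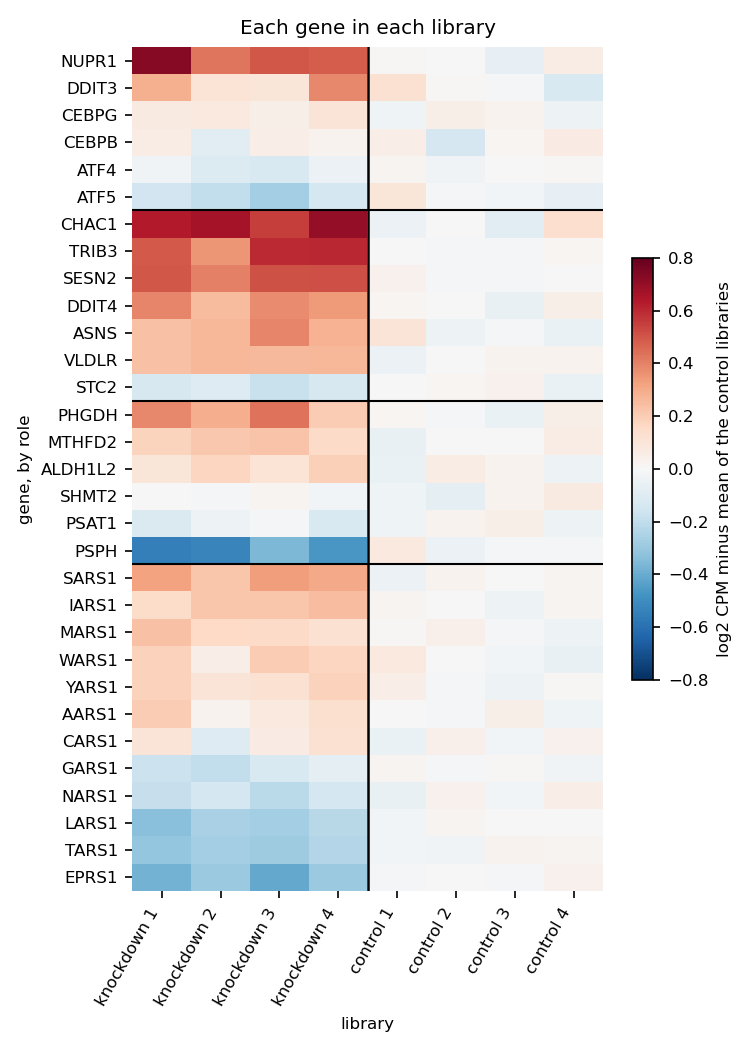
Log2 CPM of each of the 31 genes (rows, by role) minus the mean of the control libraries, in the 4 knockdown libraries (left columns) and the 4 control libraries (right columns). TRIB3, SESN2, CHAC1 and NUPR1 are red and PSPH and EPRS1 blue in all 4 knockdown columns, and the red of TRIB3 and AARS1 is palest in knockdown replicate 2.

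Levels per length, as CPM per kilobase of all exons annotated to a gene in GENCODE release 29, spanned a wide range. Annotated exons that are little used lower a gene's value by this measure. NUPR1, at 15.8 CPM in control libraries, had 5674 such bases, and CHAC1, at 5.35 CPM, had 2058. In control libraries NARS1 (73.8 ± 2.61), ATF4 (69.5 ± 1.1) and GARS1 (53.5 ± 0.796) were the highest of the 31 genes and ALDH1L2 (1.93 ± 0.0743), CHAC1 (2.6 ± 0.175) and NUPR1 (2.79 ± 0.0995) the lowest, all in CPM per kilobase (SD, n = 4). The levels of EPRS1 (46.0 ± 0.695) and IARS1 (45.1 ± 0.963), which followed, lay within their spread of each other in control libraries. In knockdown libraries the same measure was 36.2 ± 1.44 for EPRS1 and 52.2 ± 1.57 for IARS1, apart by more than their spread. ATF4 (66.0 ± 2.14) and NARS1 (65.5 ± 1.62) then stood at the top within 1 SD of each other.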

How the data were processed

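Per the labels' protocols, total RNA with an integrity number above 7.0 was enriched for poly(A) RNA and made into directional libraries. The deposited values are raw whole-number counts per gene. The submitters' processing notes list the build hg19 and the tools FastQC, STAR, featureCounts and DESeq2, with no version. Neither the annotation, the strand setting nor the handling of multi-mapped reads is stated there. Of 60609 rows, 1 with a missing cell and 44 empty pseudoautosomal copies were left out, leaving 60564 genes. The authors' counts were compared with edgeR 4.0.16 (limma 3.58.1, R 4.3.3) using filterByExpr, TMM and the quasi-likelihood F test with robust dispersions, Benjamini-Hochberg adjusted over 16884 genes, threshold 0.05. Fold changes are knockdown over control, SE comes from the F statistic, and CPM uses TMM-scaled library sizes. The design text calls the libraries biological replicates without saying whether cultures were separate, so p-values measure spread between these libraries, which may be in part technical.

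Members and lists were chosen with earlier results of these data known. All members are named; of other lists, up to 3 rising and 3 falling genes with the smallest adjusted p. Symbols came from a gene name table, exon lengths from GENCODE release 29 (GRCh38, not the named hg19), promoters from RefSeq. In simulated counts for this comparison (16452 genes), the test called 87 of 97 genes given a 2-fold change and 66 of 97 given a 1.3-fold change, and 4.97% of its calls were false. No other gene was changed there, while 51.1% of genes were called in the data, so these rates may not carry over. Within-group chi-square per gene of 1.9 to 4.48 showed no duplicated library. Alternatives were DESeq2 1.42.0, its size factors, 2 other filters, a replicate block and omission of each library. Some genes of the lists are not reported here by name.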

Additional observations from a re-analysis of the deposited data

Results flagged for a closer look

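SESN2 was at 84.3 CPM in ATOH8 knockdown replicate 2, below the 90.2 to 91.2 CPM of the other knockdown libraries by more of the group's range than Dixon's critical value of 0.829 allows for 4 libraries. It was the single such case among 62 groups of 4 values examined, where chance gives about 5%. All SESN2 values in control libraries were between 63.1 and 65.2 CPM, and its log2 change ran from 0.47 to 0.51 over all settings.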

How the results depend on the processing

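Of 403 recomputed member values under 13 alternatives, 380 kept their direction and their side of the threshold, and 25 of the 31 genes did so in every one. The other 6 are ATF4, DDIT3, CEBPB, SHMT2, ALDH1L2 and AARS1; where calls changed, the cause was not tested. Signs turned for CEBPB, uncalled, at -0.035 to 0.045 over omissions of a library, and for SHMT2, also uncalled, at 0.003 with a filter of at least 1 CPM and -0.029 to 0.021 over omissions. The members called higher numbered 15 to 17 and those called lower 8 or 9 under all alternatives, beside 17 and 8. No count over all genes moved by more than 1.5 times, and no scaling shifted the median of all genes by more than 0.006 (log2). Replicate numbers were shared between groups, but no pairing is stated, so the main fit did not treat them as pairs. Deviations of same-numbered libraries correlated at 0.0456, 0.0369, 0.00143 and 0.0574, and those of differently numbered libraries at -0.0816 to 0.0328. With the replicate number as a block, 4336 genes were called higher and 4466 lower, 17 and 9 of them members, with ATF4 called lower (log2 -0.075, adjusted p = 0.0298) and ATOH8 at -1.26. Of the 31 genes CHAC1, at 106 to 220 counts per library, had the widest SE (0.0899).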

Other observations

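Human cells hold 8 of the cytosolic synthetases and 3 scaffold proteins in a multi-synthetase complex. This grouping was applied after the values were seen. Of its 11 genes, 2 (IARS1 and MARS1) rose, 8 fell and AIMP1 missed the threshold (median log2 change -0.27). Of the 12 cytosolic synthetase genes outside the complex, 4 (SARS1, WARS1, YARS1 and AARS1) rose, 7 fell and CARS1 did not pass, with a median of -0.12. Of all genes tested 25.2% rose and 25.9% fell, with a median of -0.0007. EPRS1, LARS1, IARS1 and MARS1 are members of the complex and of the 31 genes, and they went both ways within it.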
